A study of Mus musculus with 4 samples.

Results

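The cytochrome P450 genes on a mouse array were examined in epididymal fat of male mice. All genes of the array annotation whose symbol begins with Cyp and a digit were taken, apart from 2 that make steroid hormones in the testis (Cyp17a1 and Cyp11a1), which gave 97 genes of 19505 named genes. The choice used gene symbols only. Each of 4 groups gave RNA for 1 array, so the data are 4 Affymetrix Clariom S Mouse arrays in 1 colour. The GW-SA mice received GW4869, an inhibitor of extracellular vesicle release, and had synergist ablation, an operation that overloads a muscle by removing those that share its work. The GW-Sham mice received GW4869 and sham surgery, the Veh-SA mice received the vehicle DMSO and synergist ablation, and the Veh-Sham mice received DMSO and sham surgery. The sources used here do not state strain, age, dose or time after surgery, or whether an array holds 1 mouse or a pool. The title of the series concerns vesicles from overloaded muscle and lipolysis in fat, so overload against sham addresses how fat differs after overload, and the comparison of that difference between GW4869 and vehicle addresses a role of vesicle release.

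Cytochrome P450 enzymes hold a heme group and insert an oxygen atom into their substrates with electrons from a reductase, cytochrome b5 or, in mitochondria, adrenodoxin. Families with low numbers mainly oxidise drugs, solvents and fatty acids, and families with higher numbers mainly carry out single steps in the making or removal of sterols, steroid hormones, bile acids, vitamin D and retinoic acid. Most are known from the liver, while fat is known to express a smaller set that acts on fatty acids, sterols and small solvents.

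The 4 arrays differed in transcripts of the male reproductive tract. Of 10 sperm and testis markers, 3 were above background on GW-SA, 0 on GW-Sham, 0 on Veh-SA and 10 on Veh-Sham, where the list median was log2 15.38. Of 10 epididymal epithelium markers measured, 10 were above background on GW-SA, where the median was 15.17, 0 on GW-Sham, 0 on Veh-SA and 2 on Veh-Sham. The 6 markers of distal epididymis and vas deferens had medians of 5.33, 12.87, 3.19 and 13.15 on the GW-SA, GW-Sham, Veh-SA and Veh-Sham arrays. The 9 mature adipocyte markers measured were above background on every array, with medians of 17.06, 17.42, 17.85 and 16.94. Each of the 4 comparisons between groups includes the Veh-Sham or the GW-SA array, so none can be made without an array that carries sperm or epididymal transcripts. The part of these transcripts in the P450 differences was not tested. In whole fat tissue, fewer cells of a type and less RNA per cell cannot be told apart.

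Most P450 genes gave no reading above background. The background level was set at log2 6.40, the highest over the arrays of the 95th percentile of 23 antigenomic control rows. Of the 97 genes, 18 exceeded it on at least 1 array and 16 on all 4, while 79 stayed at or below it everywhere. Thus 18.6% of the P450 genes exceeded it on at least 1 array, against 53.5% of all named genes. A second set of negative controls is brighter, with a 95th percentile of up to 9.27, and 8 P450 genes exceeded that level on at least 1 array and 5 on all 4. Readings between 6.40 and 9.27 can therefore still lie within background.

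**Figure D1:**
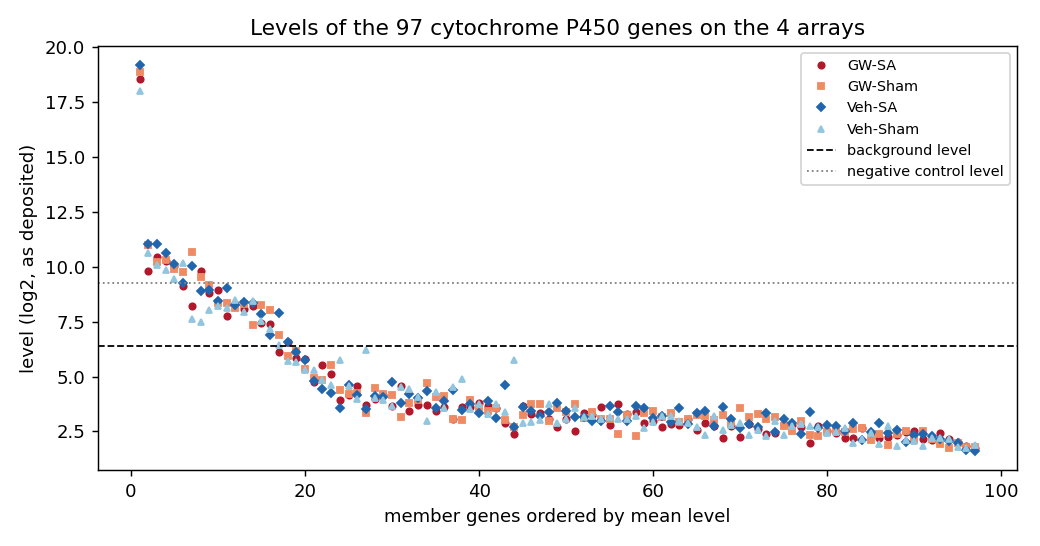
Readings (log2, as deposited) of the 97 P450 genes on the GW-SA, GW-Sham, Veh-SA and Veh-Sham arrays, in order of their mean. The dashed line marks the background level of 6.40 and the dotted line the negative control level of 9.27, and 79 genes lie below the dashed line on all 4 arrays. The order of different probe sets is an order of brightness, not of transcript number.

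The genes above background are given here by role. Of 26 genes of family 2 outside the groups named next, 6 were above background on at least 1 array (Cyp2e1, Cyp2f2, Cyp2d22, Cyp2d13, Cyp2u1 and Cyp2s1). Of 21 genes of family 4, which mainly hydroxylate fatty acids, 4 were (Cyp4b1, Cyp4f13, Cyp4f16 and Cyp4f17). Of 21 genes of subfamilies 2c and 2j, many of which turn arachidonic acid into epoxides, 2 were (Cyp2j6 and Cyp2j9). Of 7 sterol and bile acid genes, 3 were (Cyp27a1, Cyp39a1 and Cyp51). Of 3 genes of family 1, which responds to the aryl hydrocarbon receptor, Cyp1b1 was, and of 3 vitamin D genes Cyp2r1 was. Cyp20a1, an orphan P450 without an agreed substrate, completes the 18.

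Some groups of P450 genes stayed below background in full, and others in part. All 9 members of subfamily 3a, the main drug-oxidising subfamily of liver, read at most 3.92 on any array. The 3 retinoic acid hydroxylases, Cyp26a1, Cyp26b1 and Cyp26c1, read at most 4.28, and the 3 steroid hormone genes Cyp11b1, Cyp11b2 and Cyp21a1 at most 4.47. Cyp7a1, the rate-limiting enzyme of bile acid synthesis in liver, and Cyp8b1 were below background on all arrays, as were Cyp1a1 and Cyp1a2, classical targets of the aryl hydrocarbon receptor. Cyp27b1 and Cyp24a1, which activate and inactivate vitamin D, were below background as well. The sterol and bile acid, family 1 and vitamin D groups had other members above background, as listed above. Of 8 hepatocyte markers, Alb was the 1 above background, with readings between 6.65 on GW-SA and 7.43 on Veh-SA.

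The nearest readings under the background level were those of Cyp2j13 (6.21 on Veh-Sham) and Cyp4f18 (6.15 on GW-Sham), and the nearest above it were those of Cyp4f17 (6.45 on Veh-Sham) and Cyp2r1 (6.57 on GW-SA and 6.58 on Veh-SA). Cyp2j13, Cyp4a12a and Cyp4a30b, picked after their values were seen, read at most 3.70, 2.71 and 4.41 on the GW-SA, GW-Sham and Veh-SA arrays, and 6.21, 5.73 and 5.75 on the Veh-Sham array. These readings lie under the background level, so no fold is given.

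Many P450 genes lie beside close relatives in the genome, and within such runs few members gave a reading. By the order of genes in the RefSeq annotation, 70 of the 97 genes lay in 7 runs of at least 4 members with gaps of at most 500 kb, and 10 of these 70 were above background on at least 1 array. Of the 27 genes outside such runs, 8 were. The run of 13 genes on chromosome 7 that holds subfamilies 2a, 2b, 2f, 2g, 2s and 2t had Cyp2f2 and Cyp2s1 above background. The run of 9 Cyp2d genes on chromosome 15 had Cyp2d22 and Cyp2d13, the run of 9 Cyp4f genes on chromosome 17 had Cyp4f13, Cyp4f16 and Cyp4f17, and the run of 7 Cyp2j genes on chromosome 4 had Cyp2j6 and Cyp2j9. The run of 11 family 4 genes on chromosome 4 had Cyp4b1 alone, and the runs of 13 Cyp2c genes on chromosome 19 and 8 Cyp3a genes on chromosome 5 had 0. Probe sets of such close relatives can bind each other's transcripts, and how far they do was not tested.

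Overload under vehicle came with more P450 genes at higher than at lower readings, as over all named genes. The balance of the P450 genes held under centring on all genes or on the mean of the adipocyte markers. It turned under centring on the median of the adipocyte markers. Of the 97 genes, 9 were at least 1.5-fold higher on the Veh-SA array than on the Veh-Sham array (9.28%), where 13.8% of all named genes were, and 1 was lower, where 9.3% of all named genes were. A gene counts as higher or lower when the log2 difference reaches 0.58 after readings under the background level are set to it. Over the genes above background on at least 1 array, 9 of 18 P450 genes and 25.8% of all genes were higher, a description only, because a gene that is bright on 1 array passes that filter. The counts became 13 higher and 0 lower when arrays were centred on the median of all genes, 6 and 2 when centred on the mean of the adipocyte markers, and 1 and 6 when centred on their median. The shares of all named genes higher and lower were then 26.9% and 6.63%, 6.32% and 12.6%, and 0.99% and 26.8%. Before readings are set to the background level, these centrings add 0.47, -0.33 and -0.91 to log2 overload differences under vehicle and -0.10, 0.37 and 0.37 to those under GW4869. They add -0.22, 0.57 and 0.79 to GW4869 differences in overloaded mice, and 0.36, -0.13 and -0.49 to those in sham mice. Differences of smaller size, here and below, can change direction with the scaling, while genes that lie under the background level on both arrays after centring have a difference of 0. The median of the adipocyte markers was the reading of Lipe on all 4 arrays, so the last centring rests on 1 gene. With 1 array per group no difference has a replicate check, no test was possible, and all values describe these arrays.

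Cyp2e1, the enzyme that oxidises ethanol, acetone and small solvents, read 18.56 on GW-SA, 18.85 on GW-Sham, 19.17 on Veh-SA and 17.99 on Veh-Sham. It was brightest on Veh-SA and dimmest on Veh-Sham, and both GW4869 arrays lay between. The overload difference was -0.29 under GW4869 and 1.18 under vehicle. The 9 adipocyte markers had median overload differences of -0.24 and 0.35 in the same comparisons.

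Cyp2f2, which activates naphthalene in mouse airway cells, had the widest range of the 18, with 8.19 on GW-SA, 10.66 on GW-Sham, 10.02 on Veh-SA and 7.60 on Veh-Sham. It was bright on GW-Sham and Veh-SA and dim on the others. Sperm and epididymal epithelium markers were at or below background on the 2 bright arrays, while 6 of 6 distal epididymis and vas deferens markers were above it on GW-Sham and 0 of 6 on Veh-SA. Overload came with a 5.52-fold lower reading under GW4869 and a 5.33-fold higher one under vehicle. GW4869 came with a 3.53-fold lower reading in overloaded mice and an 8.32-fold higher one in sham mice. These folds are on the deposited scale. The directions were the same under every scaling tried, and with readings under 9.27 set to that level the overload differences were -1.39 under GW4869 and 0.75 under vehicle.

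Cyp1b1, which oxidises estradiol and polycyclic hydrocarbons, read 9.80 on GW-SA, 9.53 on GW-Sham, 8.87 on Veh-SA and 7.47 on Veh-Sham. Both GW4869 arrays were above both vehicle arrays. GW4869 came with a reading higher by 0.92 in overloaded mice and by 2.06 in sham mice. The overload difference was 0.26 under GW4869 and 1.40 under vehicle. With readings under 9.27 set to that level, the GW4869 differences were 0.53 in overloaded mice and 0.26 in sham mice and the overload difference under vehicle was 0.00, all short of 1.5-fold. Centred on the median of the adipocyte markers, the overload difference was 0.63 under GW4869 and 0.49 under vehicle. The list medians of the macrophage markers had the same order, at 11.65, 10.81, 9.81 and 8.98, and 7 of 7 were at least 1.5-fold higher for GW4869 in sham mice. Single markers departed from that order, and in overload under GW4869 3 of 7 were higher and 1 was lower. The part of macrophage content in the Cyp1b1 readings was not tested.

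Cyp51, the demethylase that acts on lanosterol in cholesterol synthesis, was the 1 P450 gene lower by at least 1.5-fold in overload under vehicle, with 9.13 on GW-SA, 9.74 on GW-Sham, 9.26 on Veh-SA and 10.17 on Veh-Sham. Its overload difference was -0.61 under GW4869 and -0.92 under vehicle. Both sham arrays were above both overload arrays. The medians of the smooth muscle markers (10.84, 13.92, 7.58 and 14.29 on GW-SA, GW-Sham, Veh-SA and Veh-Sham) and of the distal epididymis and vas deferens markers were also higher on both sham arrays, and the part of these cells in the Cyp51 readings was not tested. Centred on all genes, the vehicle difference was -0.44 and no longer counted as lower. The difference of -0.61 under GW4869 lay near the threshold. It no longer counted as lower when centred on the mean or the median of the adipocyte markers, or with readings under 9.27 set to that level.

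The sequences around the transcription starts of these 4 genes are shown because these genes had the reading farthest above background, the widest range, the order by GW4869 and the lower reading in both overload comparisons. They come from RefSeq (GRCm38.p6), cover 250 bases before to 50 after the annotated start on the gene's strand, and have letters in capitals where a motif matched on either strand.
Cyp2e1: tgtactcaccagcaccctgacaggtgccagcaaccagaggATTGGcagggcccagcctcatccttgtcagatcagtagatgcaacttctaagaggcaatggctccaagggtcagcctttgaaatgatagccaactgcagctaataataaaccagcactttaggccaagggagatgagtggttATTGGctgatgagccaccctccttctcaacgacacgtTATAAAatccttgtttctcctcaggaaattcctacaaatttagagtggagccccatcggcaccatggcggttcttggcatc
Cyp2f2: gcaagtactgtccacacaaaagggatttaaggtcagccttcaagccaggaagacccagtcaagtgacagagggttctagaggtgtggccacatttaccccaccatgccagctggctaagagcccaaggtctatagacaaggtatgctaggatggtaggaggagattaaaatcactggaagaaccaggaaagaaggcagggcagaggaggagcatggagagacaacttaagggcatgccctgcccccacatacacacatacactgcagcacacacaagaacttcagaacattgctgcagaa
Cyp1b1: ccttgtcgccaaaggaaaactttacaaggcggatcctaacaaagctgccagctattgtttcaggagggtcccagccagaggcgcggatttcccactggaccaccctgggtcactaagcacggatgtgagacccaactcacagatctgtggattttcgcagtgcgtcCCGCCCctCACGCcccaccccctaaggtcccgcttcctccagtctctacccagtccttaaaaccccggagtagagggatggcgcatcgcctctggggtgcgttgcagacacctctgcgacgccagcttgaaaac
Cyp51: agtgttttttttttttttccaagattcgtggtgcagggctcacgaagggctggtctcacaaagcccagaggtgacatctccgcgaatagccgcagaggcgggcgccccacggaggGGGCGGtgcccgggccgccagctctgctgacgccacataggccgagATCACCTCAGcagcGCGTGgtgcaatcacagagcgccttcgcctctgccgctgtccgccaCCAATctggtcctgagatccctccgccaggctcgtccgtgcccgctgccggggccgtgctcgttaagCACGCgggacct
They lie at chr7:140763569-140763868 on the plus strand, chr7:27119705-27120004 on the plus strand, chr17:79715012-79715311 on the minus strand and chr5:4104648-4104947 on the minus strand, in the order given. Their GC content was 49.7%, 50.3%, 58.3% and 64.7%, against a median of 52.7% over all 32851 promoters of the table.

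Short motifs were searched on both strands in the promoters of the 13 P450 genes above background that matched the table by symbol. The table was not matched for Cyp2d22, Cyp2d13, Cyp2u1, Cyp39a1 and Cyp4f17. The TATA box (TATAAA) matched in Cyp2e1 alone, with its first base at position -31, and in 13.6% of all promoters. The CCAAT box (CCAAT) matched in 8 of 13 and in 37.4% of all, the GC box (GGGCGG) in 8 of 13 and 35.7%, and the core of the xenobiotic response element (GCGTG), to which the aryl hydrocarbon receptor binds, in 6 of 13 and 32.4%. Cyp1b1 held 1 GCGTG core on the opposite strand with its first base at -76. Cyp51 held such cores with first bases at -75 and, on the opposite strand, at 39. The others with a core were Cyp20a1, Cyp2j9, Cyp2r1 and Cyp4f16. In Cyp51 a sterol response element known from the human gene and added to the search after the sequence was read began at -89, where its letters stand in capitals. The same letters occurred in 16 of all promoters (0.0487%). The other motifs were CACGTG (E-box, 1 of 13, 7.15% of all), TTGCNNAA (C/EBP-type, 2 of 13, 10.8%), TTATGTAA (D-box, 0 of 13, 0.938%), TGACGTCA (cAMP response element, 0 of 13, 1.79%), and, given by name only, a general sterol element (0 of 13, 0.234%), an HNF1-type element (0 of 13, 0.0091%) and a direct repeat of nuclear receptor sites (0 of 13, 0.0396%). No matches overlapped in the 4 promoters shown. A match describes letters only.

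**Figure D2:**
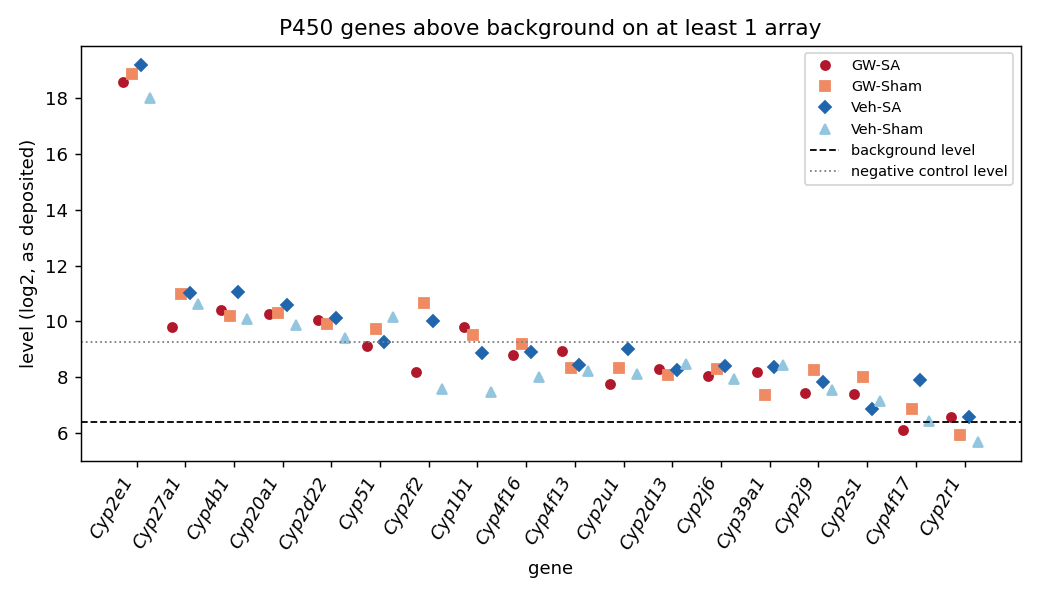
Readings (log2, as deposited) of the 18 P450 genes above background on at least 1 array, with 1 point for each of the GW-SA, GW-Sham, Veh-SA and Veh-Sham arrays. Cyp2f2 spans 7.60 to 10.66 and Cyp1b1 7.47 to 9.80, and the dashed and dotted lines mark the background level of 6.40 and the negative control level of 9.27.

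Of the family 4 genes above background, Cyp4b1 and Cyp4f17 were brightest on Veh-SA, Cyp4f16 on GW-Sham and Cyp4f13 on GW-SA. Cyp4b1, which acts on fatty acids and on plant furan toxins, read 10.43 on GW-SA, 10.19 on GW-Sham, 11.05 on Veh-SA and 10.07 on Veh-Sham. Its overload difference was 0.24 under GW4869 and 0.98 under vehicle, so Veh-SA stood above the other arrays, which lay close together. Centred on the mean or the median of the adipocyte markers, Cyp4b1 counted as higher in overload under GW4869. Centred on their median, it no longer counted as higher under vehicle.
Cyp4f16, of the subfamily that hydroxylates leukotrienes and long-chain fatty acids, read 8.81, 9.18, 8.93 and 8.01 on GW-SA, GW-Sham, Veh-SA and Veh-Sham, and Veh-Sham was the low array. Cyp4f17, of the same subfamily, read 6.12, 6.88, 7.90 and 6.45, with Veh-SA the high array and the others near background, so its overload difference of 1.45 under vehicle rests on 1 reading. Cyp4f13 read 8.93, 8.35, 8.44 and 8.23, and its difference of 0.59 in overload under GW4869 lay at the threshold. Cyp2u1 of family 2, which also hydroxylates long-chain fatty acids, read 7.76, 8.34, 9.01 and 8.11, brightest on Veh-SA.

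Of the arachidonic acid epoxygenase subfamilies, Cyp2j6 read 8.07 on GW-SA, 8.29 on GW-Sham, 8.41 on Veh-SA and 7.94 on Veh-Sham, and reached 1.5-fold in none of the 4 comparisons. Cyp2j9 read 7.45, 8.27, 7.84 and 7.55 and was lower in overload under GW4869 by 0.82. Ephx2, the soluble epoxide hydrolase that opens the epoxides such enzymes make, read 14.27 on GW-SA, 14.54 on GW-Sham, 15.62 on Veh-SA and 14.29 on Veh-Sham. It stood 1.33 higher on Veh-SA than on Veh-Sham and the other arrays lay close to Veh-Sham. Of the 4 epoxide hydrolases measured it was the 1 that was higher for overload under vehicle, and Ephx1, the microsomal form, had -0.49.

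Among the sterol genes, Cyp27a1, the mitochondrial enzyme that hydroxylates the cholesterol side chain, read 9.80 on GW-SA, 10.98 on GW-Sham, 11.03 on Veh-SA and 10.64 on Veh-Sham. GW-SA was the low array. Overload came with a reading 1.18 lower under GW4869, while under vehicle the difference was 0.38.
Cyp39a1, which acts on oxysterols on the way to bile acids, read 8.20, 7.37, 8.36 and 8.43, with GW-Sham the low array, so it was 0.83 higher in overload under GW4869 and 1.06 lower for GW4869 in sham mice.

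Cyp20a1 read 10.28, 10.30, 10.60 and 9.86 on GW-SA, GW-Sham, Veh-SA and Veh-Sham, and Cyp2d22 10.04, 9.90, 10.13 and 9.42. Of the 4 comparisons, both passed 1.5-fold in overload under vehicle alone, with 0.74 and 0.70, or -0.17 and -0.21 when centred on the median of the adipocyte markers. Cyp2d13 had the narrowest range, between 8.10 and 8.47.
Cyp2s1, a dioxin-inducible enzyme of epithelia, read 7.41, 8.03, 6.89 and 7.17, with GW-Sham the high array. Cyp2r1, which makes the circulating form of vitamin D in liver, read 6.57, 5.93, 6.58 and 5.69, with both sham arrays under background.

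Overload under GW4869 came with more lower than higher P450 genes, as over all named genes. This balance turned under both centrings on the adipocyte markers. Of the 97 genes, 5 were lower on GW-SA than on GW-Sham (5.15%), where 6.69% of all named genes were, and 2 were higher, where 5.68% were. The 5 were Cyp2f2, Cyp27a1, Cyp2j9, Cyp2s1 and Cyp51, and the 2 were Cyp39a1 and Cyp4f13. Counts were 1 higher and 6 lower with centring on all genes, 5 and 2 with centring on the mean of the adipocyte markers, and 4 and 2 with centring on their median. The shares of all named genes were then 4.51% and 8.76%, 14.2% and 2.62%, and 13.9% and 2.64%. Before any centring, Cyp51 was the 1 P450 gene lower in both overload comparisons (1.03%), where 0.733% of all named genes were. Cyp2f2 was the 1 that passed 1.5-fold in opposite directions (1.03%), where 3.64% did, and 0 P450 genes were higher in both, where 1.07% were.

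**Figure D3:**
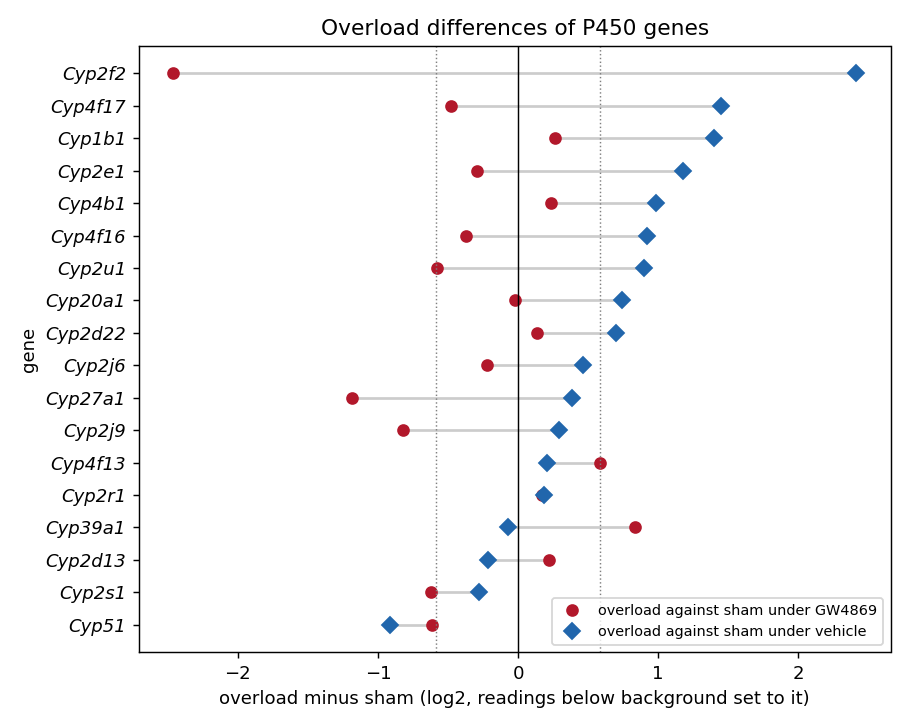
Overload minus sham (log2, readings under the background level set to it) for the 18 P450 genes, with circles for GW4869 and diamonds for vehicle. Dotted lines mark 1.5-fold, and Cyp2f2 lies at -2.46 under GW4869 and 2.41 under vehicle.

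The overload difference under GW4869 was smaller than that under vehicle by 1.5-fold or more for 11 P450 genes (11.3%), where 17.2% of all named genes were, and larger for Cyp39a1 (1.03%), where 12.4% were. Over the genes above background on at least 1 array, 11 of 18 P450 genes (61.1%) and 32.2% of all genes had such a smaller difference. This is again a description only, because a gene that is bright on 1 array passes that filter. After Cyp2f2 (-4.88), the largest gaps belonged to Cyp4f17 (-1.93), Cyp27a1 (-1.57), Cyp2u1 (-1.48) and Cyp2e1 (-1.47). The balance turned with centring on the median of the adipocyte markers, where the difference under GW4869 was larger for 7 genes and smaller for 2, Cyp2f2 and Cyp4f17. With centring on their mean it was larger for 4 and smaller for 6. Over all named genes it was larger for 35.0% and smaller for 1.94% with centring on their median. With centring on their mean these shares were 23.1% and 6.03%.

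GW4869 against vehicle in overloaded mice came with 6 lower P450 genes (6.19%), where 8.4% of all named genes were lower, and with 1 higher, Cyp1b1, where 8.17% were higher. The 6 were Cyp2f2 (-1.82), Cyp4f17 (-1.50), Cyp2u1 (-1.25), Cyp27a1 (-1.23), Cyp4b1 (-0.63) and Cyp2e1 (-0.61), and the last pair turned to 0.16 and 0.18 when centred on the median of the adipocyte markers. In sham mice 6 were higher (6.19%), where 13.1% of all named genes were, and 1 was lower, Cyp39a1, where 8.43% were. Over the genes above background on at least 1 array, 6 of 18 P450 genes (33.3%) and 24.4% of all genes were higher in sham mice, a description only because of that filter. The 6 were Cyp2f2 (3.06), Cyp1b1 (2.06), Cyp4f16 (1.17), Cyp2e1 (0.86), Cyp2s1 (0.86) and Cyp2j9 (0.72). Centring on the mean of the adipocyte markers gave 4 higher and 4 lower in overloaded mice and 6 and 1 in sham mice. Of all named genes, 20.8% were then higher and 1.92% lower in overloaded mice, and 9.54% and 9.59% in sham mice. Centring on all genes gave 1 higher and 7 lower in overloaded mice and 11 and 1 in sham mice. The shares of all named genes were then 5.64% and 13.72% in overloaded mice, and 24.30% and 6.41% in sham mice. Centring on the adipocyte median gave 8 and 2 in overloaded mice, and 3 and 3 in sham mice. With it these shares were 27.02% and 1.005% in overloaded mice, and 4.445% and 15.39% in sham mice. The comparisons that use the Veh-Sham array share its readings, and so do those that use the GW-SA array.

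Across the 18 genes the Veh-Sham array was the lowest of the 4 for 10 genes (55.6%) and Veh-SA the highest for 9. Over all 10437 genes above background on at least 1 array, Veh-Sham was the lowest for 44.4% and Veh-SA the highest for 28.9%. These shares are a description only, because both sets passed the filter on the same arrays. The median overload difference over all 97 P450 genes was 0.00 in both comparisons, as it was over all named genes, because most P450 readings were set to the background level.

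**Figure D4:**
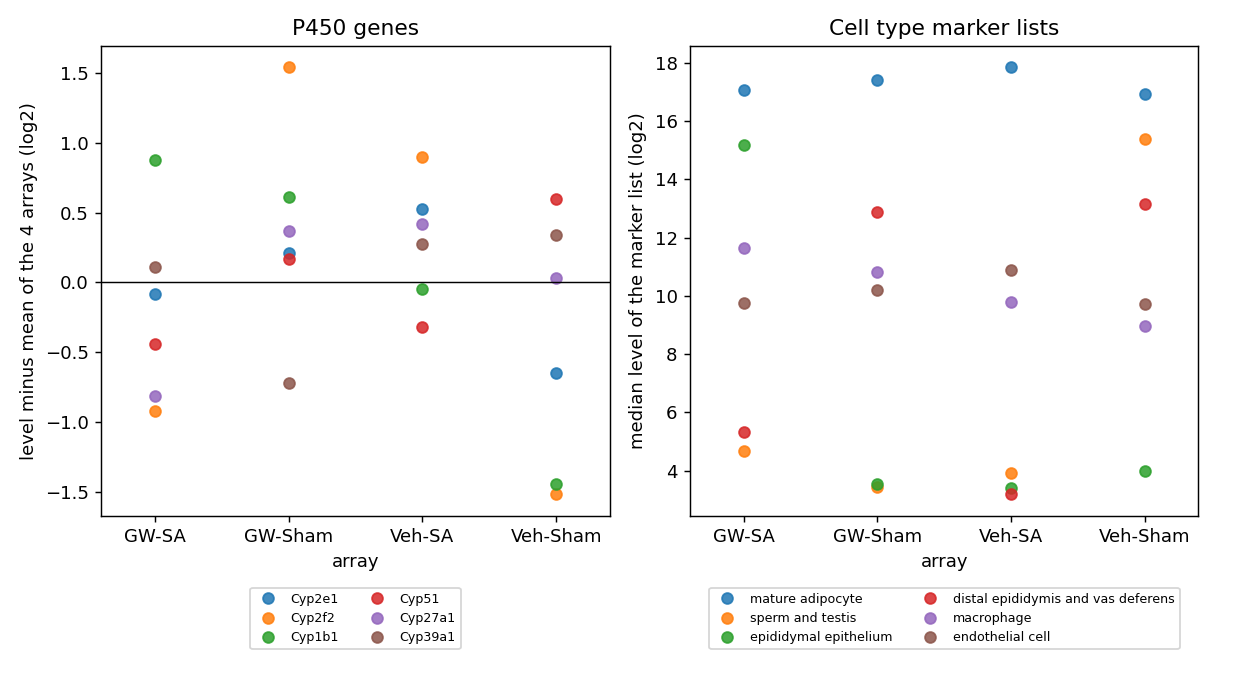
Left, levels of 6 P450 genes on each array minus their mean over the 4 arrays (log2). Right, median levels (log2) of 6 cell type marker lists on the same arrays, where the sperm and testis list is at 15.38 on Veh-Sham and the epididymal list at 15.17 on GW-SA.

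Partners of the P450 enzymes were read from further lists. Of the electron donors, 4 of 7 listed were measured, and Cyb5b and Cyb5a, forms of cytochrome b5, were lower in overload under GW4869 by 0.81 and 0.76, while 0 of 4 reached 1.5-fold under vehicle. Of 7 heme synthesis genes measured, Urod and Alas1, the entry enzyme of the route, were higher in overload under vehicle by 0.97 and 0.74, and Alas1 and Fech were lower under GW4869 by 0.78 and 0.62. Alas1 read 14.00 on GW-SA, 14.78 on GW-Sham, 14.63 on Veh-SA and 13.89 on Veh-Sham, so it was bright on the arrays where Cyp2f2 was bright. The medians of the adipocyte, endothelial and fibroblast and progenitor markers were highest on the same arrays.
Ptgis and Tbxas1, the P450 enzymes that make prostacyclin and thromboxane and carry no Cyp symbol, were both higher in overload under vehicle, by 1.09 and 0.84. For GW4869 in sham mice Tbxas1 was higher by 1.99, and Ptgis read 9.58 on GW-Sham against 7.57 on Veh-Sham. Tbxas1 is known from macrophages, whose markers were higher in 4 of 7 cases in overload under vehicle and in 7 of 7 for GW4869 in sham mice.

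Of 15 receptors and regulators measured, 3 were higher in overload under vehicle, namely the glucocorticoid receptor Nr3c1 (1.53), the oxysterol receptor Nr1h3 (1.24) and Arnt (0.61), the partner of the aryl hydrocarbon receptor. Under GW4869 2 were lower, Rxra (-0.68) and Nr1h3 (-0.67). The liver xenobiotic receptors Nr1i2 and Nr1i3 were below background on all arrays. Ahr read 6.54, 5.91, 6.68 and 5.62 on GW-SA, GW-Sham, Veh-SA and Veh-Sham, all within the range of the negative controls.
Of 13 conjugating enzymes measured, Gstt1 (1.67) and Mgst1 (0.73) were higher and Gstm2 (-1.42) and Gstm1 (-0.63) lower in overload under vehicle. Under GW4869 Tpmt (0.98) and Nqo1 (0.76) were higher and Gstt1 (-1.16) and Gsta3 (-0.80) lower. Gstt1 had the same order of bright and dim arrays as Cyp2f2, with 9.76, 10.91, 10.71 and 9.04. The medians of the adipocyte, endothelial and fibroblast and progenitor markers were also highest on GW-Sham and Veh-SA.
Of 11 retinoid genes measured, Aldh1a1 (-1.05) and Aldh1a2 (-0.59), which make retinoic acid, were lower in overload under vehicle. Under GW4869 Stra6, a receptor for retinol uptake, was at least 2.12 higher, and Rbp4 (-0.88) and Dhrs3 (-0.84) were lower.

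The other cell type markers moved as follows. Endothelial markers were lower in overload under GW4869 in 4 of 7 cases and higher under vehicle in 5 of 7, and fibroblast and progenitor markers lower in 3 of 6 and higher in 1 of 6. Smooth muscle markers were lower in overload in 6 of 6 cases under GW4869 and in 6 of 6 under vehicle. Of 7 mesothelial markers, 4 were lower and 2 higher under GW4869, and 3 were lower under vehicle. Of 5 Leydig cell markers measured, Hsd3b6 and Hsd3b1 were above background on Veh-Sham alone, at 12.87 and 9.39. The part of each of these cell types in the P450 readings was not tested.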

How the data were processed

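RNA of epididymal fat was measured on 4 arrays, 1 for each of 4 groups taken from the sample titles. The authors deposited log2 values for probe sets. The submitters' processing notes name RMA and Partek, without versions, and the settings are not given. The values run up to 19.93 and the step that set this scale is not given, so a fold is on the deposited scale only. A platform annotation named 19572 of 28846 rows with 1 gene, and 0 with several, which gave 19505 genes. For each gene the probe set with the highest mean was kept, and all 97 P450 genes have 1 probe set and matched RefSeq by gene ID. Readings under log2 6.40 were set to it before differences were taken, and differences of at least 1.5-fold were counted. The number of arrays limits the precision, no p-value was computed, and the table holds no detection calls. Every P450 gene above background on at least 1 array could be named, dimmer ones only without a fold where a route is known for them, and of the other lists up to 4 members with the largest differences. Members, roles, lists of partner genes and lists of cell type markers were chosen with earlier results of these data known. The counting was checked on simulated data. Calculations used Python 3.11.15, pandas 2.3.3 and numpy 2.4.6. The alternatives were a 2-fold threshold, other floors, other scalings and the mean of probe sets. A floor at the negative controls and centring on the mean of the adipocyte markers were added after seeing the data.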

Additional observations from a re-analysis of the deposited data

Results flagged for a closer look

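Cyp2f2 and Cyp2e1 passed 1.5-fold in opposite directions in a pair of comparisons. For Cyp2f2 the overload difference under GW4869 minus that under vehicle was -4.88 on the log2 scale, and the GW4869 difference in overloaded mice minus that in sham mice is by construction the same value, -4.88. For Cyp2e1 the GW4869 difference was -0.61 in overloaded mice and 0.86 in sham mice, a gap of -1.47. Centred on the median of the adipocyte markers, these were 0.18 and 0.37 with a gap of -0.20, and centred on their mean the difference in overloaded mice was -0.048, so the opposite directions past 1.5-fold are lost under both. With 1 array per group neither gap was tested.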

How the results depend on the processing

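No paired analysis was possible because each group has 1 array, so no array could be left out and no spread between replicates is known. Counts of P450 genes higher and lower are given for overload under GW4869, overload under vehicle, GW4869 in overloaded mice, GW4869 in sham mice, and GW4869 minus vehicle for the overload difference, in that order. As reported they were 2 and 5, 9 and 1, 1 and 6, 6 and 1, and 1 and 11. A 2-fold threshold gave 0 and 2, 4 and 0, 0 and 4, 3 and 1, and 0 and 8. The shares of all named genes were then 2.51% and 2.15%, 4.84% and 6.60%, 3.92% and 2.78%, 4.76% and 6.04%, and 8.45% and 9.60%. No floor gave 7 and 16, 26 and 8, 5 and 22, 20 and 12, and 12 and 38. All named genes then had shares of 12.1% and 14.7%, 27.2% and 16.7%, 15.1% and 19.4%, 24.3% and 15.2%, and 21.2% and 34.0%. A floor at the median of the background controls gave 3 and 6, 10 and 2, 1 and 6, 6 and 2, and 2 and 12. For all named genes the shares were 7.22% and 8.09%, 16.5% and 11.6%, 10.0% and 10.0%, 15.6% and 10.4%, and 15.0% and 20.2%. Centring on all genes gave 1 and 6, 13 and 0, 1 and 7, 11 and 1, and 0 and 13. Centring on the median of the adipocyte markers gave 4 and 2, 1 and 6, 8 and 2, 3 and 3, and 7 and 2. The shares of all named genes moved with the centrings too, as given with the 4 comparisons above. For the difference between the overload differences, they were 8.36% and 28.8% with centring on all genes. Quantile normalization gave 1 and 6, 10 and 1, 1 and 6, 6 and 1, and 1 and 12. With it, shares of all named genes were 5.43% and 6.76%, 16.4% and 8.45%, 7.21% and 9.76%, 14.1% and 7.96%, and 11.1% and 19.4%. The mean of probe sets could not change these counts, because each P450 gene has 1 probe set. The alternatives chosen after seeing the data were a floor at the negative controls and centring on the mean of the adipocyte markers. That floor gave 0 and 2, 5 and 1, 0 and 4, 2 and 0, and 0 and 5. Under it all named genes had shares of 2.27% and 3.31%, 5.85% and 4.06%, 3.56% and 4.50%, 5.05% and 3.52%, and 5.44% and 8.21%. That centring gave 5 and 2, 6 and 2, 4 and 4, 6 and 1, and 4 and 6. For the difference between the overload differences, all these alternatives were likewise added after seeing the data. Centring on the adipocyte median turned the overload difference under vehicle to -0.17 for Cyp20a1, -0.21 for Cyp2d22 and -0.012 for Cyp2u1, and the GW4869 difference in overloaded mice to 0.18 for Cyp2e1 and 0.16 for Cyp4b1. It turned the difference between the overload differences to 0.14 for Cyp1b1, 0.51 for Cyp20a1, 0.59 for Cyp2j6, 0.165 for Cyp2j9 and 0.53 for Cyp4b1. That difference became 0.26 for Cyp1b1 with the floor at the negative controls and 0.0080 for Cyp2j6 with centring on the mean of the adipocyte markers. Apart from the shifts added by the centrings, and the fewer genes a stricter threshold or floor can count, the cause was not tested.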
